A study of Mus musculus with 6 samples.

Results

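The genes described here make cholesterol, sense it, move it out of the cell or make the fatty acids that are controlled with it. They are 31 genes chosen by symbol, and all 31 were found by Ensembl identifier among the 21666 genes of the deposited count matrix and passed the filter on low counts. The libraries are RNA-seq of mouse satellite cells, the resident stem cells of skeletal muscle, kept for 2 days in differentiation. There were 3 libraries from lncMREF KO mice, which lack a long noncoding RNA that the series title links to myogenic differentiation, and 3 from WT mice. The sources used here give neither the strain, age and sex of the mice, nor the way the KO was made, nor the number of animals behind each library. P-values therefore cover the variation among these 6 libraries alone, part of which may be technical.

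Cholesterol is built from acetyl-CoA through mevalonate, farnesyl diphosphate, squalene and lanosterol by enzymes that sit largely in the endoplasmic reticulum. When sterols are low, the protein Scap carries the membrane-bound SREBP transcription factors to the Golgi, where they are cut and freed to switch on these enzymes. Insig proteins hold Scap back when sterols are high. Oxysterols, made when cholesterol is plentiful, activate the LXR nuclear receptors, whose known targets include the efflux pumps Abca1 and Abcg1, Srebf1 and Scd1. In muscle, cholesterol is a component of the surface membrane and its caveolae, and of the membranes that join when myoblasts fuse.

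Library totals ran from 17919826 to 23646805 counts in KO and from 20193337 to 28430678 in WT. The quasi-likelihood test of edgeR called 10353 of 15518 genes at a Benjamini-Hochberg adjusted p under 0.05, so a call by itself was common. Markers of the labelled cell type were detected in both genotypes, which alone does not show what share of the cells fits the label. All 8 satellite cell and myoblast markers were tested (2 higher, 5 lower in KO). Their summed level was 1430.2 to 1452 CPM (counts scaled to a fixed library size) in KO and 5695 to 5861 in WT. The most abundant, Des (574 CPM in KO, 3099 in WT), Itga7 (348 and 1270) and Myog (312 and 750), were lower, as were Cdh15 and Myod1. The stem cell marker Pax7 (15.1 in KO, 10.5 in WT) and Chodl (8.63 and 2.62) were higher, and Myf5 was not called. Other marker lists moved with genotype as well. Of 16 tested macrophage and leukocyte markers, 14 were higher in KO (summed level 389 to 402 CPM in KO and 119 to 130.4 in WT; Aif1 was at 0 in WT replicate 3). Of 12 Schwann and glial markers, 8 were higher and 2 lower (1096 to 1115 in KO, 588 to 595 in WT), and all 13 endothelial markers were lower (201 to 207 in KO, 487 to 500.3 in WT). Of 3 tested adipocyte markers, Plin4 was higher and Fabp4 lower (9.06 to 10.01 in KO, 18.4 to 25.4 in WT for the list), with Adipoq at 0 in WT replicate 1 and Cfd at 0 in KO replicates 1 and 3. Among 7 fibro-adipogenic markers 3 were higher and 3 lower (11637 to 12375 in KO, 10222 to 10362 in WT). Col1a1 (7544 CPM in KO, 6685 in WT) and Col3a1 (4196 and 3276) made up most of that sum. Both were higher, as was Pdgfra, while Dcn, Ly6a and Dpt were lower. All 7 cell cycle markers were higher (500.5 to 542 in KO, 137 to 139 in WT), and mitochondrial genes held 2.07% to 2.3% of counts in KO and 3.97% to 4.18% in WT. The part of these differences in the results for sterol genes was not tested, and in bulk RNA fewer cells of a type and less RNA per cell cannot be told apart. The knockout itself was not checked, because lncMREF was not matched to a gene identifier. The count tables deposited for single libraries go against the matrix gene by gene: Hmgcs1 averaged 5940.5 counts in the matrix and 0 in those tables, and Mvk 1109 and 0. All values here are from the matrix, and they hold only if its gene labels are the right ones.

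Sterol genes did not move as a block. Of the 31, 15 were called higher in KO, 10 were called lower and 6 were not called. The share called, 25 of 31, stood beside 66.7% of all genes tested, with 33.7% of all genes higher and 33.0% lower. The changes were mostly small: 5 of 31 were called with a change of at least 1.5-fold, against 32.0% of all genes tested. The 3 KO values and the 3 WT values did not overlap for 25 of the 31, against 69.4% of all genes tested. The median log2 fold change, KO over WT, was 0.12 for the 31 genes and 0.02 for all genes tested. Mvd, Mvk, Lss and Fdft1, which act between mevalonate and lanosterol, rose most, but Pmvk and Fdps of the same stretch were not called and Idi1 fell. Ebp, Sc5d and Dhcr7, the last enzymes of the path, Abca1, Abcg1, Srebf1, Insig2, Scd1 and Scd2 were the other genes called lower. A link between direction and place in the pathway was not tested.

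The small changes depended on the scaling between libraries. With library size in place of TMM, which moved the median of all genes up by 0.17 on the log2 scale, 18 of the 31 were called higher and 6 lower. Idi1, Sc5d, Dhcr7 and Abca1 then lost their calls, and Pmvk (0.29, edgeR adjusted p 0.000128), Nsdhl (0.21, adjusted p 0.000385) and Scap (0.16, adjusted p 0.0113) were called higher. The falls that stayed called were smaller, at -0.19 for Ebp, -0.21 for Scd1 and for Scd2, -0.28 for Srebf1, -0.30 for Insig2 and -0.79 for Abcg1. Small rises were larger, at 0.33 for Hmgcs1, 0.37 for Cyp51, 0.41 for Insig1, 0.49 for Stard4 and 0.29 for Srebf2 and for Nr1h2.

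**Figure D1:**
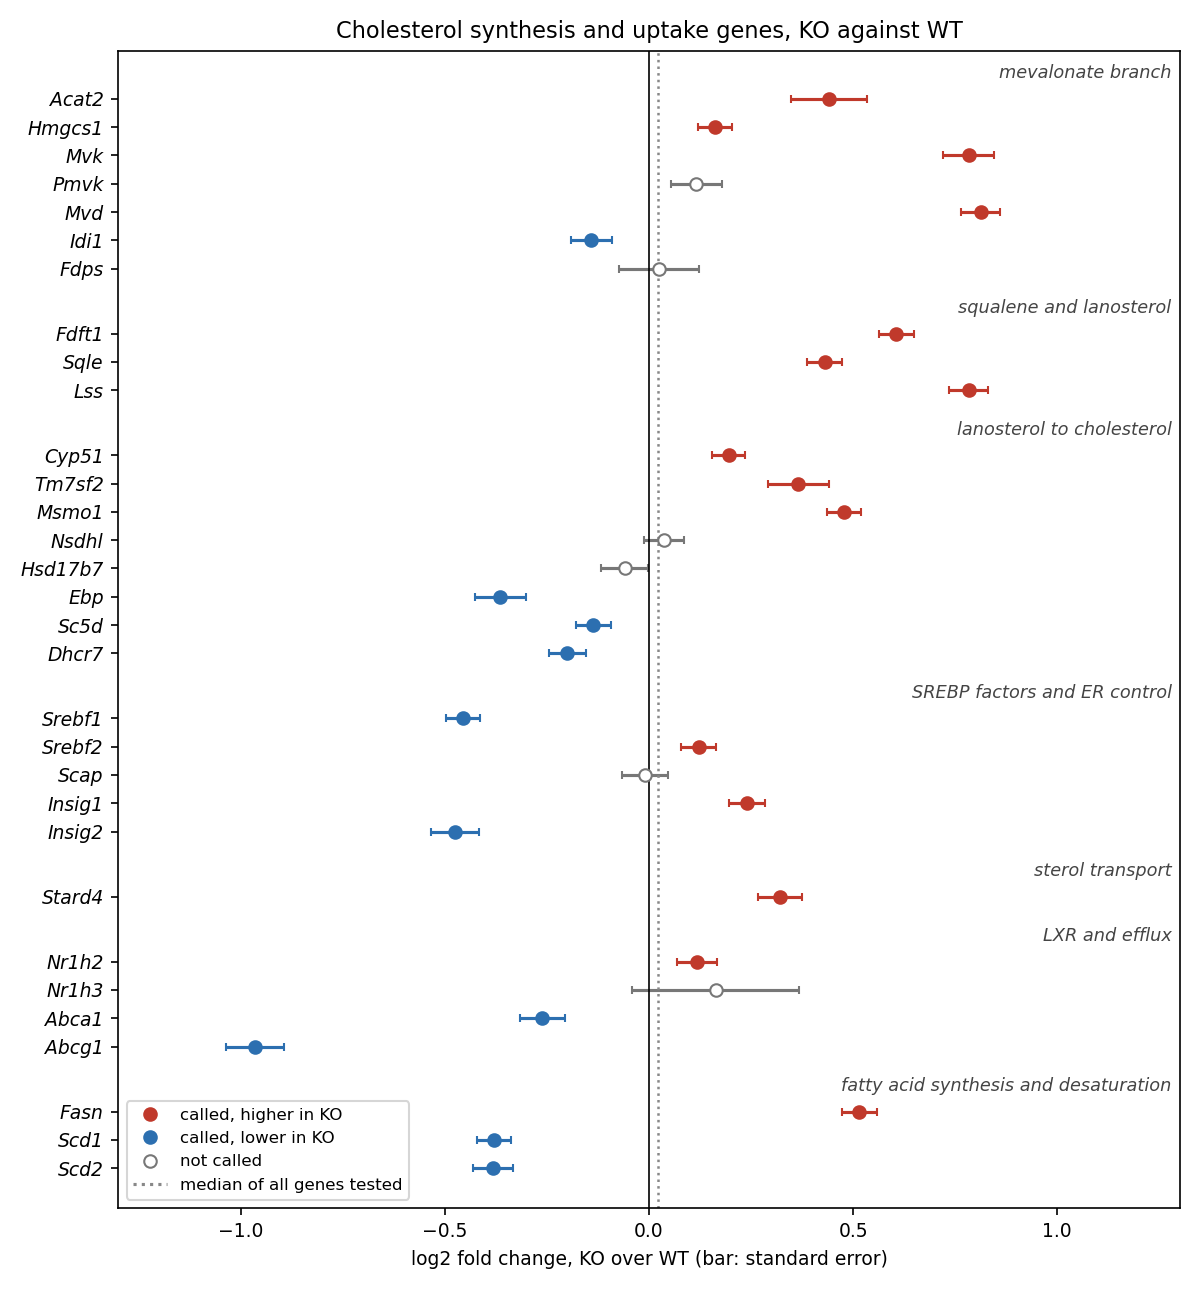
The log2 fold change of KO over WT is plotted on the horizontal axis for each of the 31 genes, grouped by role, with its standard error as the bar. Filled points are the 15 genes called higher and the 10 called lower, open points the 6 not called, and the dotted line the median of all genes tested at 0.02.

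In the mevalonate branch, 4 of 7 genes rose, 1 fell and 2 were not called (71.4% called, against 66.7% of all genes tested). Mvd, the decarboxylase that makes isopentenyl diphosphate (ENSMUSG00000006517, mm10 chromosome 8, 122433601 to 122443422), had 127, 132.5 and 128 CPM in KO replicates 1 to 3, against 73.6, 70.7 and 76.5 CPM in WT replicates 1 to 3. The lowest KO library stood above the highest WT library by more than the range within either genotype. The log2 fold change was 0.81 (SE 0.05, edgeR adjusted p 5.28e-17), a 1.76-fold rise.

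Mvk, mevalonate kinase (ENSMUSG00000041939, chromosome 5, 114444269 to 114460591), stood at 66.0, 57.3 and 66.1 CPM in KO and at 36.0, 37.3 and 36.6 CPM in WT. KO replicate 2 was lower than the other KO libraries and still above every WT library. The log2 fold change was 0.78 (SE 0.06, edgeR adjusted p 1.84e-13). The first enzymes changed less. Acat2, a cytosolic thiolase that joins 2 acetyl-CoA, averaged 117 ± 6.22 CPM in KO and 86.5 ± 11.3 in WT (SD, n = 3 each), and WT replicate 1, at 73.6 CPM, was the lowest of its group. Its log2 fold change was 0.44 (SE 0.09, edgeR adjusted p 0.00299). Hmgcs1, the HMG-CoA synthase of the cytosol, ran between 272 and 286 CPM in KO and between 245 and 255 CPM in WT, a small rise of 0.16 on the log2 scale (SE 0.04, edgeR adjusted p 0.000887).

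The kinase Pmvk, which acts between Mvk and Mvd, was not called, at 37.4 ± 1.36 CPM in KO and 34.5 ± 0.908 in WT (log2 fold change 0.12, SE 0.06, edgeR adjusted p 0.099), although its groups did not overlap. Idi1, the isomerase that follows Mvd, fell by 0.14 on the log2 scale (SE 0.05, edgeR adjusted p 0.0137), with levels of 94.0 to 103 CPM in KO and 102 to 114 in WT that overlapped. Idi1 no longer passed when KO replicate 3 (adjusted p 0.0643) or WT replicate 2 (0.0629) was left out, with GC and length offsets (0.168) and with library size in place of TMM scaling, where its sign turned (0.03, adjusted p 0.604). Over all alternatives the Idi1 adjusted p ran from 0.00239 to 0.604. Fdps, farnesyl diphosphate synthase, was at 14.7 ± 0.369 CPM in KO and 14.3 ± 2.24 in WT and was not called (log2 fold change 0.02, SE 0.10, edgeR adjusted p 0.837). The annotation shares 26.7% of Fdps exonic bases with other genes, most of them with Gm43738, which is not among the genes of the matrix. The Fdps counts may miss reads that could not be assigned, which was not tested.

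All 3 enzymes from farnesyl diphosphate to lanosterol rose, where 33.7% of all genes tested were called higher. Lss, lanosterol synthase, which folds oxidosqualene into the first sterol (ENSMUSG00000033105, chromosome 10, 76531588 to 76557138), had 130.7, 129.6 and 139.7 CPM in KO, against 76.0, 79.5 and 76.9 CPM in WT. Its groups were far apart, with a log2 fold change of 0.78 (SE 0.05, edgeR adjusted p 1.37e-16), a 1.72-fold rise. Fdft1, squalene synthase (ENSMUSG00000021273, chromosome 14, 63145150 to 63179578), had 180.6, 191 and 186 CPM in KO, against 125, 119.5 and 122 CPM in WT.

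The Fdft1 libraries fell into 2 separate groups by genotype, with a log2 fold change of 0.61 (SE 0.04, edgeR adjusted p 1.59e-14). Of its exonic bases 18.3% are shared, most of them with Ctsb on the other strand, a cathepsin at 1105 CPM in KO and 1020 in WT with a log2 fold change of 0.11 (SE 0.04, edgeR adjusted p 0.0138). Whether reads of Ctsb entered the Fdft1 counts was not tested. Sqle, squalene epoxidase, a rate-limiting step of sterol synthesis, averaged 198.9 ± 6.03 CPM in KO and 147.5 ± 3.17 in WT, a log2 fold change of 0.43 (SE 0.04, edgeR adjusted p 7.49e-11).

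Of the 8 enzymes from lanosterol to cholesterol, 3 early ones rose, 3 late ones fell and 2 were not called. The share called was 75%, against 66.7% of all genes tested, and a link with position was not tested. Msmo1, the sterol methyl oxidase (ENSMUSG00000031604, chromosome 8, 64718139 to 64733792), had 229, 225 and 221 CPM in KO, against 159.6, 164 and 162 CPM in WT, with no overlap. Its log2 fold change was 0.48 (SE 0.04, edgeR adjusted p 2.76e-12). Cyp51, the lanosterol demethylase, averaged 397 ± 2.08 CPM in KO and 347 ± 4.44 in WT, a small rise with very close replicates (log2 fold change 0.20, SE 0.04, edgeR adjusted p 6.3e-05). Tm7sf2, a sterol reductase, rose by 0.37 (SE 0.07, edgeR adjusted p 6.07e-05), at 26.2 to 31.1 CPM in KO and 20.8 to 23.2 in WT. Of its exonic bases 12.1% are shared, most with Vps51 on the same strand. Vps51 rose too, at 25.2 CPM in KO and 20.6 in WT (log2 fold change 0.29, SE 0.08, edgeR adjusted p 0.00114). Whether reads of Vps51 entered the Tm7sf2 counts was not tested.

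The steroid dehydrogenases that follow Msmo1 did not pass the test with TMM scaling. Nsdhl stood at 104.8 to 115.8 CPM in KO and 102.7 to 114 in WT (log2 fold change 0.04, SE 0.05, edgeR adjusted p 0.524). Hsd17b7 stood at 76.8 to 92.7 in KO and 89.3 to 91.7 in WT (-0.06, SE 0.06, edgeR adjusted p 0.376), the KO range including the whole WT range.

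The last 3 enzymes were lower in KO. Ebp, the sterol isomerase, had 39.9, 45.3 and 43.7 CPM in KO, against 58.0, 51.5 and 56.1 CPM in WT, a log2 fold change of -0.36 (SE 0.06, edgeR adjusted p 3.66e-06). Dhcr7, which makes cholesterol from its last precursor, had 119, 113 and 121 CPM in KO, against 132, 134 and 139 CPM in WT, a log2 fold change of -0.20 (SE 0.05, edgeR adjusted p 0.000209). Sc5d, the desaturase before Dhcr7, averaged 140.6 ± 3.66 CPM in KO and 154.5 ± 0.833 in WT (-0.14, SE 0.04, edgeR adjusted p 0.00588).

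No value of these 3 genes overlapped between genotypes, a separation that 69.4% of all genes tested also had. The falls of Sc5d and Dhcr7 were small. Scaled by library size alone, Dhcr7 stood at -0.03 (adjusted p 0.558), Sc5d at 0.03 (0.478) and Ebp, still called, at -0.19 (0.00627). The Sc5d call was also lost with GC and length offsets (adjusted p 0.0879). Over all alternatives the adjusted p of Dhcr7 ran from 1.41e-05 to 0.558 and that of Sc5d from 0.00196 to 0.478.

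**Figure D2:**
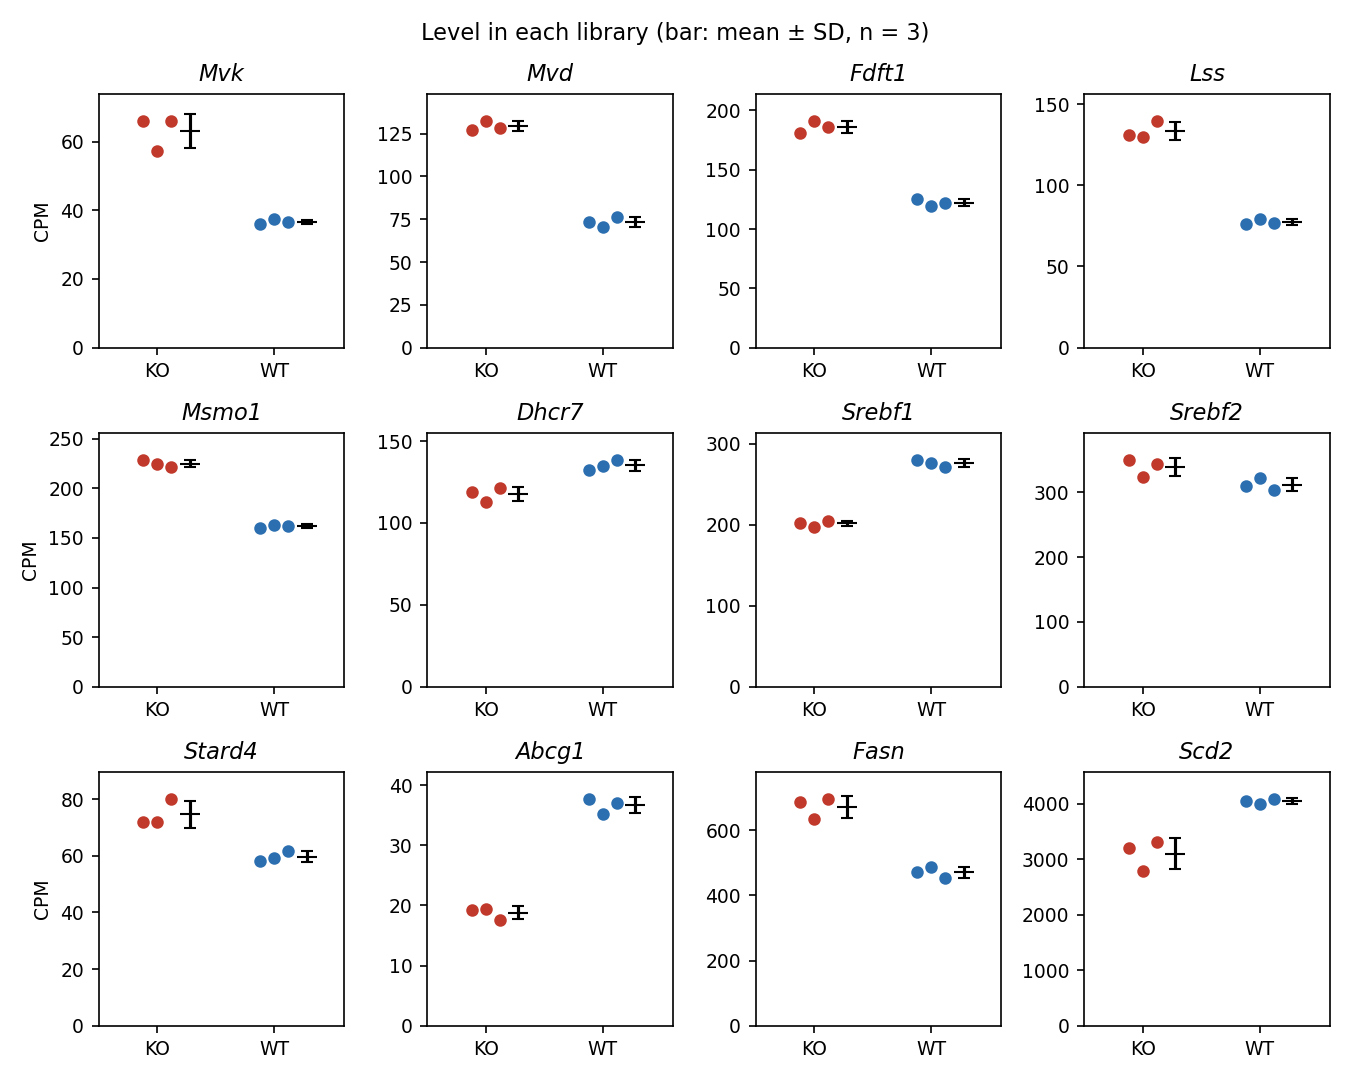
Each panel plots the CPM of 1 gene in the 3 KO and 3 WT libraries as points, from an axis that starts at 0, with the mean and SD beside them. Mvk, Mvd, Fdft1, Lss, Msmo1, Stard4 and Fasn were higher in every KO library than in any WT library, while Dhcr7 (not called when library size replaced TMM scaling), Srebf1, Abcg1 and Scd2 were lower, and the Srebf2 groups were nearly touching.

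Promoter windows were set beside these changes because the enzymes are known targets of SREBP and of the CCAAT-binding factor NF-Y. RefSeq windows on GRCm38.p6, the assembly behind mm10, run from 250 bases before to 50 bases after each annotated start, and 24 of the 31 genes had at least 1, giving 33 windows. Fdps, Fdft1, Sqle, Stard4, Abcg1, Scd1 and Scd2 had none. Windows are shown for Mvd and Lss, the largest rises, for Insig2, the largest fall with a window (the most upstream of its 3 starts), and for Hmgcs1, the only one of the 24 with a match to the sterol regulatory element spelling searched, which was chosen after the search. Each is written 5′ to 3′ on the strand of the gene, with matches in capitals: TCACNCCAC for the sterol regulatory element, ATTGG or its complement CCAAT for NF-Y, and CACGTG for an E-box, searched on both strands.
Mvd (chr8:122443373-122443672, minus strand): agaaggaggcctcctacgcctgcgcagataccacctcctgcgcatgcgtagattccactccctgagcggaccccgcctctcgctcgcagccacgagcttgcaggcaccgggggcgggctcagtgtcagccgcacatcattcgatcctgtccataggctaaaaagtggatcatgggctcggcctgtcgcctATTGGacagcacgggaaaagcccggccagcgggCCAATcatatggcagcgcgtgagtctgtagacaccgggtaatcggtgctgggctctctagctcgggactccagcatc
Lss (chr10:76531355-76531654, plus strand): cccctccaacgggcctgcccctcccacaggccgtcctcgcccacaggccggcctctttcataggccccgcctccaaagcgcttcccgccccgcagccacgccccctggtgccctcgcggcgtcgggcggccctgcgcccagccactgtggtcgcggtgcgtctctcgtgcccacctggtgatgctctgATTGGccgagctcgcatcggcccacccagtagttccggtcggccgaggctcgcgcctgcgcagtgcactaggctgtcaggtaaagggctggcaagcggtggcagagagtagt
Hmgcs1 (chr13:119690101-119690400, plus strand): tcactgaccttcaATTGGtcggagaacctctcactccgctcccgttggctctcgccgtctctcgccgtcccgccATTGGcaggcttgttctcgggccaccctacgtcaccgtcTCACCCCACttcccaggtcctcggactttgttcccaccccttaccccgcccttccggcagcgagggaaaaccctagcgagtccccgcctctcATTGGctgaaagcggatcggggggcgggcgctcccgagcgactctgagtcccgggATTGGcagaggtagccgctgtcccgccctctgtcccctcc
Insig2 (chr1:121332540-121332839, minus strand): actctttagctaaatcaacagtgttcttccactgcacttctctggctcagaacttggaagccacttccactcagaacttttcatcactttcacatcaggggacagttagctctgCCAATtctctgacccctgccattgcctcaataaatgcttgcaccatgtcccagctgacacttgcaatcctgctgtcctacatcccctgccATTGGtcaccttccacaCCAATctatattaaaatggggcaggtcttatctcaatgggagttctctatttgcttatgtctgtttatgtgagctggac

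In the Hmgcs1 window the TCACCCCAC match began at position -137 from the start, with 4 ATTGG matches in the same window, and no matches overlapped in the windows shown. Mvd held an ATTGG match and a CCAAT match, Lss 1 ATTGG, and Insig2 1 ATTGG and 2 CCAAT. On either strand, ATTGG occurred in 20 of 33 windows (60.6%), against 37.4% of all 32851 windows in the table. By direction, it occurred in 10 of 12 genes called higher, 6 of 7 called lower and 3 of 5 not called. CACGTG, which is its own complement, occurred in 7 of 33 windows (21.2%) against 7.15% of all, and TCACNCCAC in 1 of 33 (3.03%) against 1.24% of all. Several windows belong to the same gene, and these matches describe letters only.

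Of the SREBP factors and their controls, 2 of 5 rose, 2 fell and 1 was not called (80% called, against 66.7% of all genes tested). Srebf1, whose proteins act mainly on fatty acid genes (ENSMUSG00000020538, chromosome 11, 60199089 to 60222581), had 202, 198 and 205 CPM in KO, against 280.2, 277 and 272 CPM in WT. The KO libraries lay within a narrow range far below the WT ones, with a log2 fold change of -0.46 (SE 0.04, edgeR adjusted p 6.63e-12). Srebf2, whose protein acts mainly on cholesterol genes (ENSMUSG00000022463, chromosome 15, 82147181 to 82205379), had 350.4, 323.6 and 344 CPM in KO, against 310.1, 322.8 and 303 CPM in WT.

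KO replicate 2 and WT replicate 2 were nearly level for Srebf2, and the log2 fold change was 0.12 (SE 0.04, edgeR adjusted p 0.0127). Srebf2 no longer passed when KO replicate 1 (adjusted p 0.0731), WT replicate 1 (0.09) or WT replicate 3 (0.136) was left out, and over all alternatives the adjusted p ran from 2.39e-07 to 0.136. Scap, the SREBP escort, was not called, at 66.1 ± 2.46 CPM in KO and 66.7 ± 4.64 in WT (log2 fold change -0.01, SE 0.06, edgeR adjusted p 0.876).

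The Insig genes, which encode the proteins that hold Scap in the endoplasmic reticulum, moved in opposite directions. Insig1, a known SREBP target, had 212, 217 and 235 CPM in KO, against 184, 186 and 191 CPM in WT, a log2 fold change of 0.24 (SE 0.04, edgeR adjusted p 1.37e-05). Insig2 had 44.0, 42.8 and 47.4 CPM in KO, against 65.1, 60.5 and 60.6 CPM in WT, a log2 fold change of -0.48 (SE 0.06, edgeR adjusted p 7.52e-09). Neither gene overlapped between genotypes, and neither did 69.4% of all genes tested. Stard4, a carrier of cholesterol between membranes (ENSMUSG00000024378, chromosome 18, 33199355 to 33213862), rose, with 72.0, 71.9 and 80.2 CPM in KO, against 58.0, 59.3 and 61.7 CPM in WT (log2 fold change 0.32, SE 0.05, edgeR adjusted p 4.18e-06).

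Of the 4 LXR and efflux genes, 1 rose, 2 fell and 1 was not called (75% called, against 66.7% of all genes tested). The 2 that fell were the efflux pumps, where 33.0% of all genes tested were called lower. Abcg1, which passes cholesterol to lipoproteins (ENSMUSG00000024030, chromosome 17, 31057675 to 31117988), had 19.3, 19.5 and 17.5 CPM in KO, against 37.7, 35.2 and 37.1 CPM in WT. Every KO library was well under every WT library, and the log2 fold change of -0.97 (SE 0.07, edgeR adjusted p 2.2e-14), a 1.95-fold fall, was the largest of the 31 genes. Abca1, which loads cholesterol onto apolipoproteins, had 73.4, 65.7 and 76.4 CPM in KO, against 86.3, 90.3 and 81.5 CPM in WT (log2 fold change -0.26, SE 0.06, edgeR adjusted p 0.000112).

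The Abca1 call was lost with library size in place of TMM scaling (-0.09, adjusted p 0.142; 6.26e-07 to 0.142 over all alternatives). The LXR receptor genes themselves changed little. Nr1h2, the LXR made in most tissues, averaged 80.4 ± 1.82 CPM in KO and 74.1 ± 0.861 in WT (log2 fold change 0.12, SE 0.05, edgeR adjusted p 0.036), and 8 of 13 alternatives, DESeq2 among them (adjusted p 0.0911), did not call it. Without each library in turn the Nr1h2 call was lost for all but KO replicate 3, and its adjusted p ran from 4.1e-06 to 0.127 over all alternatives. Nr1h3, the LXR of liver, fat and macrophages, was low, at 2.51 to 3.27 CPM in KO and 1.95 to 3.21 in WT, and was not called (0.16, SE 0.20, edgeR adjusted p 0.494).

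The fatty acid genes of the set went in different directions. Fasn, fatty acid synthase (ENSMUSG00000025153, chromosome 11, 120805846 to 120824547), had 687, 634 and 697 CPM in KO, against 472, 486 and 454 CPM in WT, with no overlap. Its log2 fold change was 0.51 (SE 0.04, edgeR adjusted p 9.23e-13), a 1.43-fold rise. Scd1, a stearoyl-CoA desaturase that makes oleate, had 1225, 1140 and 1271 CPM in KO, against 1544, 1575 and 1613 CPM in WT.

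Scd2, a paralog of Scd1, had 3207, 2793 and 3311 CPM in KO, against 4052, 3988 and 4092 CPM in WT. The paralogs fell by 0.38 on the log2 scale each (SE 0.04 for Scd1 and 0.05 for Scd2, edgeR adjusted p 8.21e-10 and 2.98e-07). KO replicate 2 was the lowest library for both. Reads can be shared between near-identical stretches of the pair, so their separate levels are uncertain to that extent.

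Per length, the 31 genes spanned a wide range of levels. Scd2 stood highest, at 568 ± 50.1 CPM per kilobase of exonic length in KO and 740.1 ± 9.57 in WT, followed by Scd1 at 248 ± 13.7 in KO and 322 in WT. Cyp51 (89.9 in KO, 78.5 in WT) was the highest enzyme of the sterol path, and Hmgcs1 (61.0 in KO, 54.5 in WT) and Mvd (69.6 in KO, 39.6 in WT) followed. In WT, Srebf2 and Fasn lay within their SDs of each other, as did the neighbours from Mvd to Nsdhl, Acat2, Sc5d, Idi1 and Fdft1 in the order, Sqle and Msmo1, Ebp and Dhcr7, Insig2 and Hsd17b7, Scap and Abca1, and Tm7sf2 and Abcg1. The other neighbours were further apart than their SDs. Fdps (3.49 in KO, 3.40 in WT) and Nr1h3 (1.17 in KO, 1.02 in WT) were lowest. The Fdps level may miss reads from the 26.7% of its exonic bases shared with other genes, which was not tested.

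**Figure D3:**
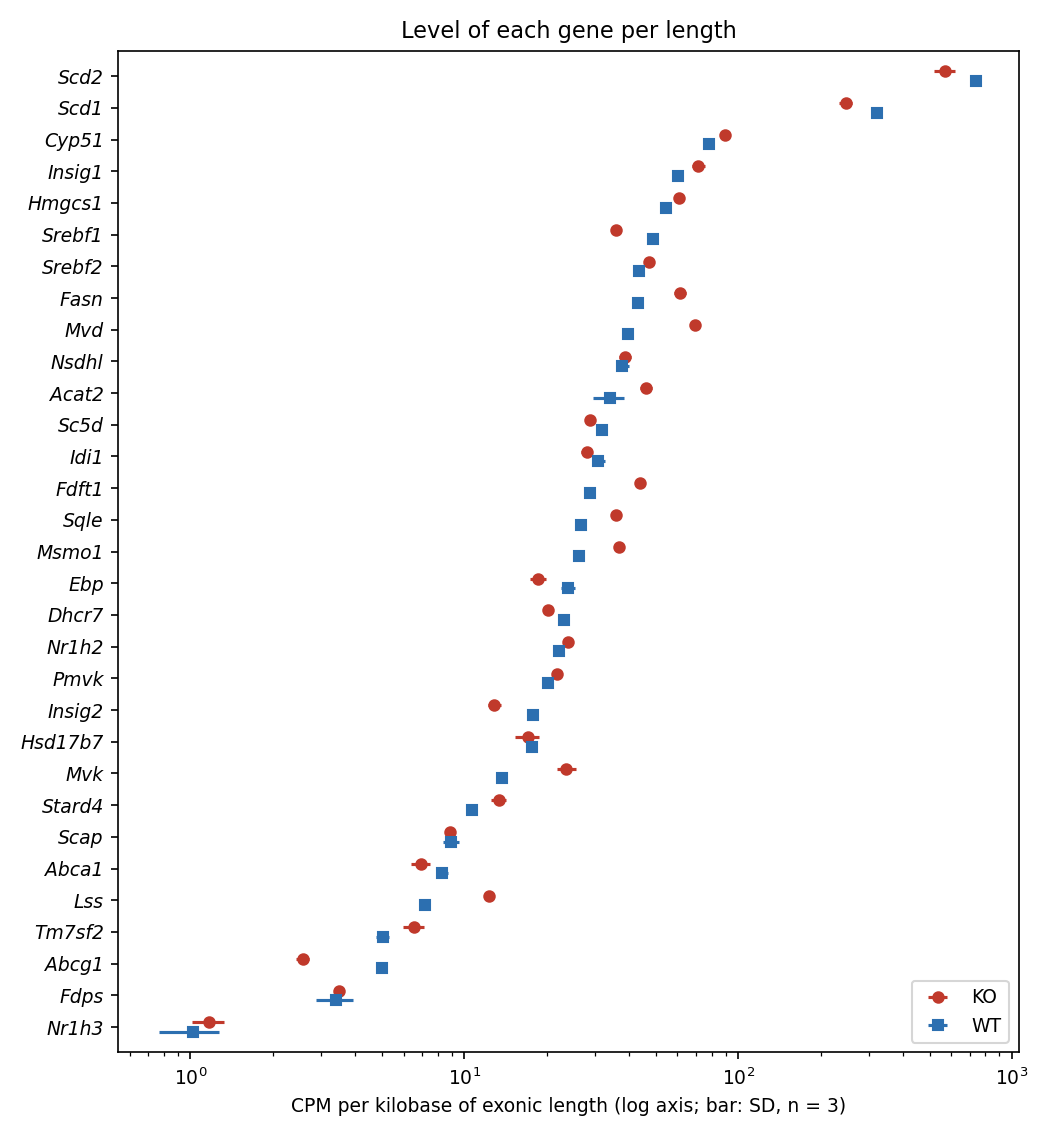
The mean CPM per kilobase of exonic length is plotted on a log axis for each of the 31 genes, ordered by the WT level, with KO as circles, WT as squares and the SD over 3 libraries as the bar. The levels ran from about 1 for Nr1h3 to 740.1 for Scd2 in WT, and the shifts between genotypes were small beside the differences between genes.

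A second list, chosen by function but with earlier results of these data known, gave the surroundings of the pathway. It held 60 sterol and fatty acid genes. Of these, 58 were matched in the matrix and 56 were tested; 22 rose, 21 fell and 13 were not called, and their median log2 fold change was -0.01. The share called was 76.8%, beside 66.7% of all genes tested, and with library size in place of TMM scaling 29 were called higher and 11 lower. In the uptake, trafficking and esterification list 9 of 19 rose and 5 fell (73.7% called). Lrp1, a large endocytic receptor for lipoproteins and many other ligands, had 2692, 2431 and 2660 CPM in KO, against 1463, 1545 and 1425 CPM in WT, a log2 fold change of 0.81 (SE 0.04, edgeR adjusted p 4.67e-18).

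Of 9 tested genes of SREBP processing and degradation in the endoplasmic reticulum 2 rose and 5 fell (77.8% called, beside 66.7% of all genes). Of 9 other sterol and isoprenoid genes 2 rose and 3 fell (55.6% called). The largest change was that of Pdss2, a subunit of the enzyme that makes the tail of coenzyme Q. It had 7.70, 8.28 and 8.12 CPM in KO, against 14.2, 14.9 and 16.1 CPM in WT, a log2 fold change of -0.91 (SE 0.10, edgeR adjusted p 7e-10). Of 4 tested oxysterol enzymes 2 rose and 1 fell (75% called).

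Of 15 fatty acid genes outside the 31, 7 rose and 7 fell (93.3% called, against 66.7% of all genes tested). Acly, which makes cytosolic acetyl-CoA from citrate, rose like Fasn, with 576, 553 and 607 CPM in KO, against 412, 417 and 408 CPM in WT (log2 fold change 0.49, SE 0.04, edgeR adjusted p 1.56e-12). Acacb, the acetyl-CoA carboxylase form at the mitochondrion, known for restraining fatty acid oxidation in muscle, had 4.71, 4.82 and 5.74 CPM in KO, against 21.9, 21.5 and 19.7 CPM in WT. Its log2 fold change was -2.05 (SE 0.10, edgeR adjusted p 9.02e-19), a 4.15-fold fall. Thrsp, a gene of lipogenic tissues, was near the detection limit in KO, at 0.226 to 0.474 CPM, against 2.45 to 3.77 CPM in WT (-3.19, SE 0.32, edgeR adjusted p 1.01e-10).

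**Figure D4:**
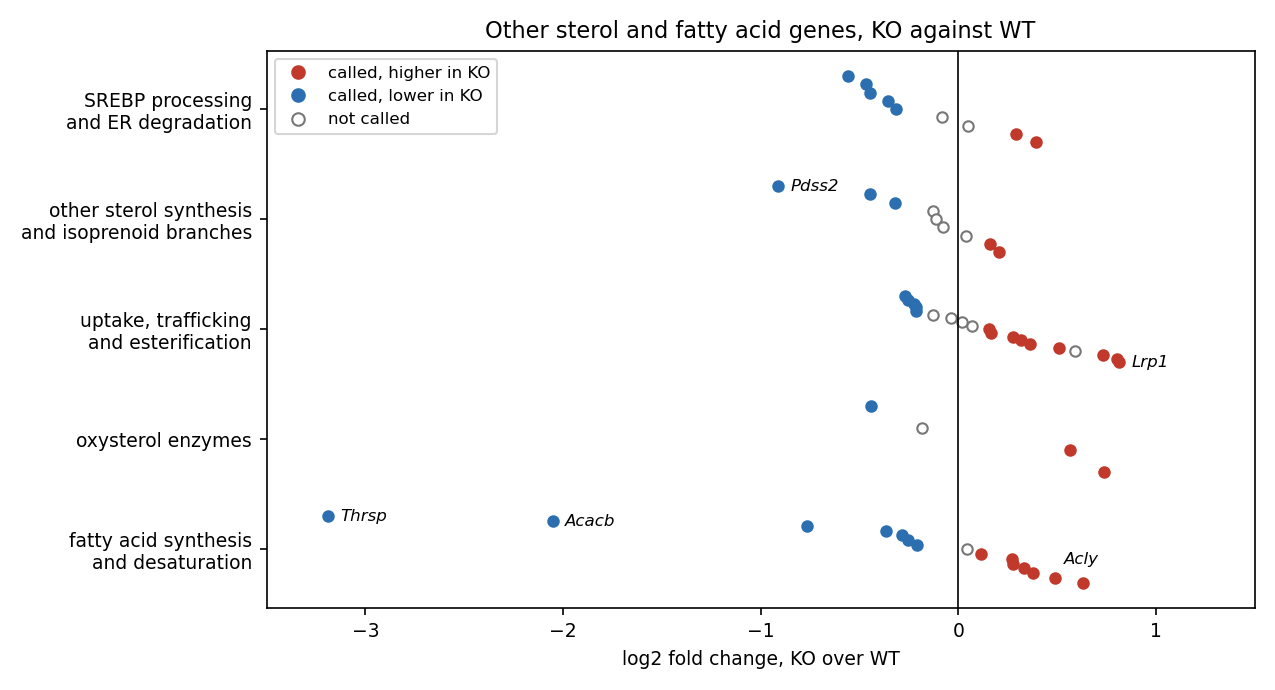
The log2 fold change of KO over WT is plotted for the 56 tested genes of the second list, 1 point a gene, grouped by role and filled where called. Most points lay between -1 and 1, with Acacb at -2.05 and Thrsp at -3.19 outside that range.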

How the data were processed

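The submitters' processing notes name HISAT2 2.2.1, featureCounts 2.0.1 and mm10. Annotation release, counting options and strand use are not given there. The authors deposited raw counts per gene, as a matrix of the series and as a table per library. The 2 forms were set side by side by gene: the per-library mean was 0.8 to 1.25 times the matrix mean for 1 of the 31 genes (Abca1) and for 581 of 9952 genes with a matrix mean of at least 200 counts (5.84%), so the matrix alone was analysed. Symbols, coordinates, exonic lengths and shared exonic bases came from GENCODE M21 (bedtools 2.31.1).

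In R 4.3.3, edgeR 4.0.16 removed low genes (filterByExpr, at least 10 counts and a total of 15), scaled by TMM and compared KO with WT by its quasi-likelihood test with no covariate, at a Benjamini-Hochberg adjusted p under 0.05. CPM were computed here with TMM-scaled library sizes. SE was taken as |log2 fold change| over √F. Fits were tested on simulated data. Replicate pairs differed by more than counting noise (mean chi-square per gene 3.18 to 5.11), and none was taken for a repeated deposit. Beyond counting noise, the fit put the coefficient of variation between libraries of a genotype at 4.91%. How much of it came from separate animals was not tested. Values in every library were given by rule for called genes changed at least 1.5-fold, Srebf1, Srebf2 and the smallest p in each role; those of Ebp, Dhcr7, Insig1, Insig2, Abca1, Scd1 and Scd2 were added after their values were seen. Of the second list, the 4 called genes with the largest change and the 2 most abundant were named. The 31 genes, the lists and the tests were chosen with earlier results of these data known. Alternatives were other scalings, no filter, DESeq2 1.42.0, limma voom 3.58.1, a replicate block, GC and length offsets (mgcv 1.9.3) and each library left out.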

Additional observations from a re-analysis of the deposited data

How the results depend on the processing

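Of the 25 genes called, 19 kept direction and call under all 13 alternatives, and 21 under those other than library size only. With library size in place of TMM scaling, which moved the median log2 fold change of all genes from 0.02 to 0.19 and the share of calls higher in KO from 50.5% to 66.1%, 18 of the 31 were called higher and 6 lower, their median was 0.29, 29 genes of the second list were called higher and 11 lower, Pmvk (0.29) and Nsdhl (0.21) gained a call, and Idi1 (0.03), Sc5d (0.03), Hsd17b7 (0.11) and Scap (0.16, called) turned sign. With GC and length offsets the median of the 31 was 0.14 and Scap stood at 0.06. The TMM factors were 0.941 to 0.943 in the WT libraries and 1.06 in each KO library, so dropping them moved the log2 fold changes up. Why the factors differed by genotype, and the cause of the shifts with GC and length offsets, was not tested. Without each library in turn the median of the 31 ran from 0.084 to 0.12, and 4 uncalled genes crossed 0: Fdps (-0.07 to 0.15), Nsdhl (-0.01 to 0.07), Hsd17b7 (-0.11 to 0.03) and Scap (-0.08 to 0.01). Calls over all genes then ran from 9766 to 10151, against 10353 with every library and 9625 with DESeq2. Same-numbered KO and WT replicates showed no shared deviation (correlation -0.025 to -0.000914), which does not tell whether they were prepared in pairs. A replicate block gave 10209 calls, with 15 of the 31 higher and 10 lower. Depth limits Nr1h3 most, at a mean of 62 counts.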
